A study of Homo sapiens with 12 samples.

Results

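SOD2, the superoxide dismutase of mitochondria, was examined with 9 other genes of antioxidant enzymes: SOD1, CAT, GPX1, GPX4, GCLM, TXNRD1, SRXN1, NQO1 and HMOX1. They were chosen by name as genes of antioxidant enzymes, with earlier results of these data known, and make up 10 of the 28087 genes in the count table. All 10 were in the table and all 10 passed the filter on low counts. RNA had been sequenced from MV3 cells, an established human melanoma line, after 24 h with extracellular vesicles (EVs, membrane particles that cells release) or with PBS. The vesicles came from THP-1 cells, a human monocytic leukaemia line, that had been polarized for 48 h to M1, M0 or M2 macrophages, and 1e10 particles were added to each well that received vesicles. The 4 groups, M1 EV, M0 EV, M2 EV and Ctrl (PBS), had 3 libraries each, and all wells had been moved to medium with 1% EV-depleted serum 3 h earlier. M1 macrophages are the pro-inflammatory state, M2 the alternatively activated state and M0, as the term is commonly used, the unpolarized state. The sample records nevertheless give the 48 h of polarization for M0 as well. No polarizing agent is named in the labels, which also leave unsaid whether replicates were separate cultures or vesicle preparations. The p-values therefore measure the spread between these libraries, which may be technical.

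Superoxide, formed mainly by leakage of electrons from the respiratory chain and by oxidases, is turned into hydrogen peroxide by superoxide dismutases, with SOD2 acting in the mitochondrial matrix and SOD1 mainly in the cytosol. Hydrogen peroxide is then removed by catalase (CAT), by glutathione peroxidases and by peroxiredoxins. The peroxidases and peroxiredoxins draw their electrons from NADPH through glutathione or thioredoxin. Many of these genes are induced by the transcription factor NRF2 (gene NFE2L2), which KEAP1 marks for degradation until oxidants or electrophiles modify KEAP1. SOD2 is known in addition as a gene induced by NF-kappa B in cells that meet inflammatory cytokines.

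Both factors bind short DNA motifs, so promoter windows of the member genes, from 250 bases before the transcription start to 50 after it, were searched on both strands. RefSeq windows (GRCh38.p14) were at hand for 8 of the 10 genes, in 14 windows, with SOD1 and HMOX1 not among them. The core of the antioxidant response element bound by NRF2, TGACNNNGC, lay in a window of GCLM and TXNRD1 and of no other member searched. Of all 35116 promoters of the same length, 13.3% hold it. The only window of NQO1 lay wholly after the start that GENCODE gives for its counted transcript (chr16:69726951). Motifs outside the windows were not searched, so a gene without a match here may hold the motif elsewhere. The AP-1 motif TGANTCA, held by 7.71% of all promoters, and the narrow kappa B motif (GGGA, any base, then TTTCC), held by 0.558%, were found in none of the 14 windows. The wide kappa B motif (GGG, any 5 bases, then CC) was found in windows of all 8 genes, and 58.7% of all promoters hold it. SOD2 had 4 windows. SOD2 is shown because it changed the most, and GCLM and TXNRD1 because they hold the same NRF2 core, each with its window nearest to the start that GENCODE gives for the transcript counted. For all 3, the 250 bases before the start are given, read 5′ to 3′ on the strand of the gene. Capitals mark the wide kappa B motif on either strand in SOD2 (4 matches that partly overlap) and TGACNNNGC on the opposite strand in GCLM and TXNRD1.
SOD2, chr6:159693242-159693491, minus strand: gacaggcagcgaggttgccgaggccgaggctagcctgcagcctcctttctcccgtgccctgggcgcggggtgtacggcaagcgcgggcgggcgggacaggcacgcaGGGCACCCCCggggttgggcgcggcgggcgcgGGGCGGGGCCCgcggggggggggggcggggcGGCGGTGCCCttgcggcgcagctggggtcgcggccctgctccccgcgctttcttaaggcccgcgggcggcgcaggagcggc
GCLM, chr1:93909431-93909680, minus strand: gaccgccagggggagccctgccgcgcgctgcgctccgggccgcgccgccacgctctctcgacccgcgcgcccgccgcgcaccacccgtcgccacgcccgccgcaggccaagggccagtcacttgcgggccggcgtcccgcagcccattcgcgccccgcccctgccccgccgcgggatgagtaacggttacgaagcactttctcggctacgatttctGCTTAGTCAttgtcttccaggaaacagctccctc
TXNRD1, chr12:104286782-104287031, plus strand: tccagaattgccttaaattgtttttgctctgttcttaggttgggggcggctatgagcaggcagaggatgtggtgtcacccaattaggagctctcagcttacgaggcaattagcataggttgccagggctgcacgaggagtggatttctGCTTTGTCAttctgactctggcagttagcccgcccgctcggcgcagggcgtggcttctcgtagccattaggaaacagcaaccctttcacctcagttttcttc
The core began 34 bases before the RefSeq start of the window in GCLM and 102 bases before it in TXNRD1, whose other window held 2 cores. GENCODE starts the counted transcripts at chr1:93909410 (GCLM), chr12:104286682 (TXNRD1) and chr6:159693328 (SOD2). All bases printed for TXNRD1 thus lie after its GENCODE start, as do some of those printed for SOD2. A match of letters is a description of the window and does not show that a factor binds there.

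Gene totals were 9694683 to 14379483 counts per library, 13113 genes were tested, and levels are given as CPM, counts scaled to the library total, after TMM scaling with factors of 0.9928 to 1.007. Changes are log2 fold changes from edgeR's quasi-likelihood model. Their standard error (SE) is the size of the change divided by the square root of the test's F statistic. The 95% intervals use this SE and 8 residual degrees of freedom, and can be wider than the test's p-value implies. A gene is called changed at a Benjamini-Hochberg adjusted p below 0.05 over all tested genes. CPM is not divided by transcript length, so levels are compared between groups and not between genes. In a population of cells, a change in the RNA of each cell and a change in the share of cells that express a gene cannot be told apart. Of 10 markers of undifferentiated melanoma 9 were tested, and their sum of 8605 to 8856 CPM in the 12 libraries came mostly from VIM and CD44. Of 11 melanocytic markers, TYR, DCT and S100B had no count, and 4 were tested: MC1R, GPR143 and PAX3, at 71.5, 64.6 and 16.7 CPM in Ctrl, and MLANA. Several markers moved with M1 EVs against Ctrl: MC1R (log2 fold change 0.41, edgeR adjusted p = 1.87e-08), PAX3 (0.23, 0.035), MCAM (0.36, 1.93e-07) and CD44 (0.16, 2.2e-05) were higher, and AXL (-0.34, 1.32e-12) and SOX9 (-0.42, 2.11e-09) lower. Of 16 macrophage markers, CD163, TYROBP and CD86 had no count in any library and 2 passed the filter. These were CD68, at 66.9 CPM in M1 EV and 56.7 CPM in Ctrl (log2 fold change 0.24, adjusted p = 0.000244, edgeR), and CTSS, at 3.25 and 0.805 CPM (1.98, adjusted p = 7.25e-07, edgeR). The summed macrophage markers were 70.8 to 72.3 CPM in M1 EV, 58.6 to 60.0 in M0 EV, 60.6 to 63.2 in M2 EV and 55.7 to 63.1 in Ctrl. The part of these markers in the results on M1 EV was not tested.

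M1 EVs changed 6 of the 10 antioxidant genes, 3 upward and 3 downward. SOD2 rose 3.42-fold, GCLM and SRXN1 rose by small amounts, and CAT, TXNRD1 and NQO1 fell. SOD1, GPX1, GPX4 and HMOX1 did not pass the test. Over all 13113 genes 28.1% were called in this comparison, 14.3% higher and 13.7% lower. The libraries of the M1 EV and Ctrl groups did not overlap for 7 of the 10 genes, against 39.6% of all genes. The median log2 fold change of the 10 was -0.02, and that of all tested genes 0.00079.

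**Figure D1:**
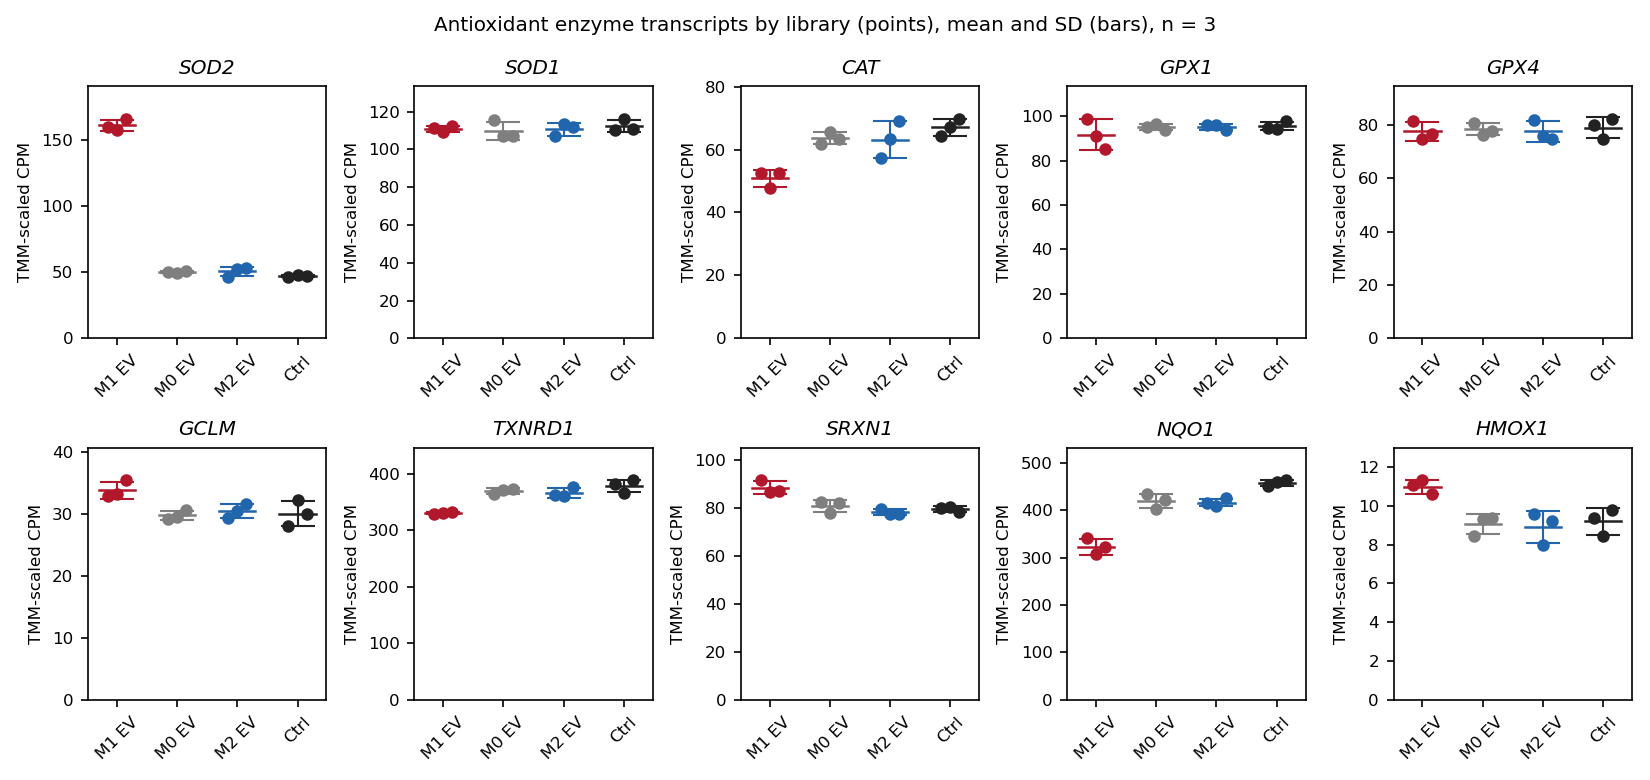
Level of each of the 10 antioxidant genes, in CPM, in each of the 12 libraries (points), with the mean and SD of the 3 libraries of each group, in the order M1 EV, M0 EV, M2 EV and Ctrl. The 3 M1 EV libraries stand far above the other 9 for SOD2 (157.6 to 166.3 against 46.8 to 53.3 CPM) and below them for NQO1 (307.6 to 340.7 against 403.1 to 463.3 CPM).

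The superoxide dismutases and catalase stand at the entry of the pathway. SOD2 (NM_000636, chr6:159669069-159762281, minus strand; here and below the span of the gene in GRCh38.p14) had 160.25, 157.6 and 166.3 CPM in the 3 M1 EV libraries, against 46.8, 47.7 and 47.2 CPM in the Ctrl libraries. Every M1 EV library was more than 3 times as high as every Ctrl library. The mean was 161.4 ± 4.45 CPM in M1 EV and 47.2 ± 0.447 CPM in Ctrl (SD, n = 3 each), from 4976 and 1463 counts. The log2 fold change was 1.77 ± 0.046 (SE), with an adjusted p of 2.22e-28 by edgeR's quasi-likelihood test, and SOD2 had the 31st highest fold change of the 13113 tested genes.

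SOD1 (NM_000454, chr21:31659693-31668931, plus strand), the copper and zinc enzyme, had 111.3, 109.1 and 112.3 CPM in M1 EV and 110.35, 116.1 and 111.0 CPM in Ctrl. The groups overlapped, and the log2 fold change was -0.02 ± 0.042 (SE; edgeR adjusted p = 0.774). Its 95% interval of -0.12 to 0.077 on the log2 scale lay far below the change of SOD2. SOD1 has 3 annotated pseudogenes (SOD1P1 to SOD1P3), whose reads the counting could have mixed with its own.

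CAT (NM_001752, chr11:34438934-34472060, plus strand), which splits hydrogen peroxide in peroxisomes, had 52.4, 47.8 and 52.6 CPM in M1 EV, against 64.3, 67.2 and 69.7 CPM in Ctrl. All M1 EV libraries lay below all Ctrl libraries. CAT fell by 0.40 ± 0.058 (SE) on the log2 scale (edgeR adjusted p = 7.87e-07), the opposite direction to SOD2.

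In the glutathione branch GCLM passed the test, and GPX1 and GPX4 did not. GPX1 (NM_201397, chr3:49357176-49358353, minus strand), which reduces hydrogen peroxide with glutathione, had 98.7, 91.2 and 85.1 CPM in M1 EV and 94.6, 94.1 and 97.6 CPM in Ctrl. GPX4 (NM_001039847, chr19:1103994-1106779, plus strand), which reduces lipid peroxides in membranes and guards cells against ferroptosis, had 81.6, 74.6 and 76.7 CPM in M1 EV and 80.0, 74.6 and 82.3 CPM in Ctrl. Both genes overlapped between the groups and neither was called. The log2 fold change was -0.06 ± 0.046 (SE) for GPX1 (95% interval -0.17 to 0.045, edgeR adjusted p = 0.36) and -0.03 ± 0.049 for GPX4 (95% interval -0.14 to 0.085, adjusted p = 0.722). GPX1 has 2 annotated pseudogenes, GPX1P1 and GPX1P2.

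GCLM (NM_002061, chr1:93885199-93909430, minus strand), the modifier subunit of the enzyme that starts glutathione synthesis, had 32.8, 33.2 and 35.4 CPM in M1 EV, against 28.0, 32.2 and 30.0 CPM in Ctrl. The groups did not overlap, but the lowest M1 EV and the highest Ctrl library were close. GCLM rose by 0.17 ± 0.064 (SE) on the log2 scale (edgeR adjusted p = 0.041). The call was lost in 8 of 13 alternatives, over which the adjusted p ranged from 0.0184 to 0.202. It was 0.159 with DESeq2, 0.0618 with no filter on low counts and 0.0566 in a fit of only these groups. It was 0.0501, 0.055 and 0.16 without M1 EV replicate 1, 2 or 3, and 0.202 and 0.0912 without Ctrl replicate 1 or 3.

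In the thioredoxin branch the members moved apart. TXNRD1 (NM_001261445, chr12:104215779-104350307, plus strand), the cytosolic selenoenzyme that reduces thioredoxin with NADPH, had 328.8, 330.8 and 331.5 CPM in M1 EV, against 381.0, 365.9 and 388.2 CPM in Ctrl. All M1 EV libraries lay below all Ctrl libraries, and TXNRD1 fell by 0.20 ± 0.032 (SE) on the log2 scale (edgeR adjusted p = 8.94e-06). SRXN1 (NM_080725, chr20:646615-653200, minus strand), sulfiredoxin, which restores peroxiredoxins that peroxide has over-oxidized, had 91.5, 86.8 and 86.9 CPM in M1 EV, against 80.0, 80.5 and 78.4 CPM in Ctrl. All M1 EV libraries lay above all Ctrl libraries, and SRXN1 rose by 0.15 ± 0.044 on the log2 scale (edgeR adjusted p = 0.00762). Without M1 EV replicate 1 its adjusted p was 0.0595.

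NQO1 and HMOX1 are the genes most often read as reporters of NRF2 activity. NQO1 (NM_000903, chr16:69709401-69726560, minus strand), which reduces quinones without forming radicals, had 340.7, 307.6 and 321.8 CPM in M1 EV, against 450.8, 459.3 and 463.3 CPM in Ctrl. Every M1 EV library lay below every Ctrl library. NQO1 fell to 0.706 of the Ctrl level, a log2 fold change of -0.50 ± 0.035 (SE; edgeR adjusted p = 1.59e-14), which was the largest fall among the 10 genes. HMOX1 (NM_002133, chr22:35381096-35394207, plus strand), heme oxygenase, which breaks heme down to biliverdin, carbon monoxide and iron, had 11.05, 11.3 and 10.6 CPM in M1 EV and 9.40, 8.42 and 9.77 CPM in Ctrl. The groups did not overlap, yet the log2 fold change of 0.25 ± 0.105 did not pass (edgeR adjusted p = 0.0889). Only 339 counts in M1 EV and 286 in Ctrl stand behind it, summed over 3 libraries each.

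**Figure D2:**
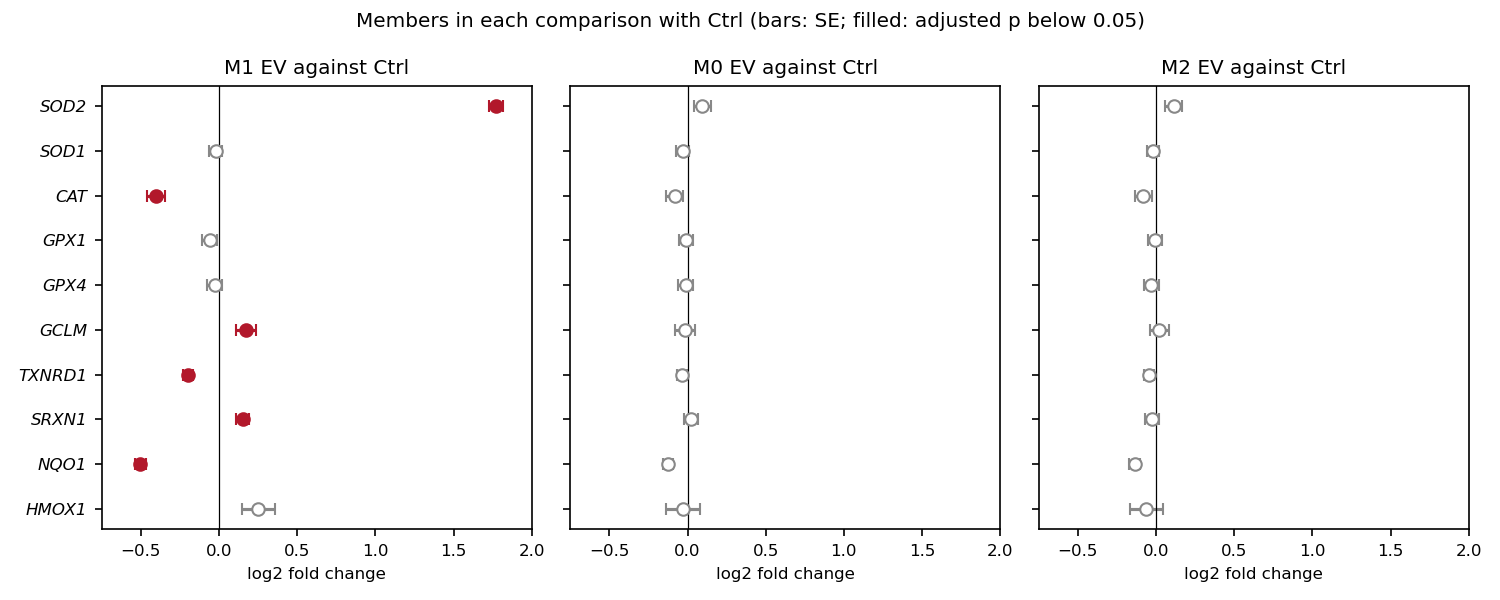
Log2 fold change of the 10 antioxidant genes (x axis) in the comparisons of M1 EV, M0 EV and M2 EV with Ctrl, with bars for the SE and filled points for an adjusted p below 0.05. SOD2 stands at 1.77 for M1 EV and at 0.09 and 0.11 for M0 EV and M2 EV, and NQO1 at -0.50, -0.13 and -0.14.

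M0 EVs and M2 EVs changed none of the 10 genes at the threshold. In M0 EV against Ctrl, edgeR, DESeq2 and limma-voom each called 0 members, and 0.0153% of all genes were called by edgeR. An unadjusted p below 0.05 was found for 1 member (NQO1) and for 665 of all 13113 genes. In M2 EV against Ctrl the 3 tools again called 0 members (DESeq2 gave SOD2 no adjusted p), and 0.0458% of all genes were called. An unadjusted p below 0.05 was found for 2 members (SOD2 and NQO1) and for 814 of all genes. These comparisons use the same 3 Ctrl libraries as that of M1 EV. SOD2 had 50.1, 49.8 and 51.1 CPM in M0 EV and 46.8, 52.3 and 53.3 CPM in M2 EV, beside 46.8, 47.7 and 47.2 CPM in Ctrl. All M0 EV libraries lay above Ctrl and M2 EV overlapped it, with log2 fold changes of 0.09 ± 0.055 for M0 EV (SE; edgeR adjusted p = 0.999) and 0.11 ± 0.053 for M2 EV (adjusted p = 0.784).

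NQO1 had 433.7, 403.1 and 421.9 CPM in M0 EV and 414.9, 409.4 and 425.1 CPM in M2 EV, and all 6 libraries lay below the 3 Ctrl libraries. Its log2 fold change was -0.13 ± 0.035 for M0 EV (SE; edgeR adjusted p = 0.329) and -0.14 ± 0.034 for M2 EV (adjusted p = 0.118). Without M0 EV replicate 1 the adjusted p for M0 EV was 0.0176, over a range of 0.0176 to 1 in the alternatives. For M2 EV it was 0.0426 with no filter on low counts and 0.0111 in a fit of only M2 EV and Ctrl, over a range of 0.0111 to 0.79. The M0 EV and Ctrl libraries did not overlap for 2 of the 10 genes, SOD2 and NQO1, against 10.2% of all genes, and the M2 EV and Ctrl libraries for NQO1, against 11.7%.

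The vesicle types were also set against each other. SOD2 was higher with M1 EVs than with M0 EVs by 1.68 ± 0.044 (SE, log2; edgeR adjusted p = 5.63e-28) and than with M2 EVs by 1.66 ± 0.043 (adjusted p = 3.55e-28). NQO1 was lower with M1 EVs, with a log2 fold change of -0.38 ± 0.035 against M0 EV (edgeR adjusted p = 5.15e-11) and of -0.37 ± 0.035 against M2 EV (adjusted p = 1.01e-10). In each of these comparisons 3 members were called higher and 3 lower, beside 25.3% of all genes called against M0 EV (12.5% higher, 12.8% lower) and 24.6% against M2 EV (12.6% higher, 12% lower). The libraries did not overlap for 7 members against M0 EV, beside 36.6% of all genes, and for 7 against M2 EV, beside 36.4%.

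CAT had 61.9, 65.6 and 63.3 CPM with M0 EVs and 57.2, 63.2 and 69.0 CPM with M2 EVs, all above the 3 M1 EV libraries. It was lower with M1 EVs, with a log2 fold change of -0.32 ± 0.058 against M0 EV (SE; edgeR adjusted p = 4.06e-05) and of -0.32 ± 0.057 against M2 EV (adjusted p = 3.26e-05). TXNRD1 had 364.2, 371.7 and 372.8 CPM with M0 EVs and 361.9, 361.0 and 375.8 CPM with M2 EVs, again all above M1 EV. Its log2 fold change was -0.16 ± 0.032 against M0 EV (edgeR adjusted p = 0.00018) and -0.15 ± 0.032 against M2 EV (adjusted p = 0.000489). CAT, TXNRD1, NQO1 and SOD2 were thus called in the same direction against each of the 3 other groups, and in all 13 alternatives of each of these comparisons.

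SRXN1, GCLM and HMOX1 differed between the vesicle types by smaller amounts. SRXN1 had 82.4, 77.7 and 82.0 CPM with M0 EVs and 79.6, 77.4 and 77.7 CPM with M2 EVs. It was higher with M1 EVs by 0.13 ± 0.043 against M0 EV (SE, log2; edgeR adjusted p = 0.0235) and by 0.18 ± 0.042 against M2 EV (adjusted p = 0.00153). The call against M0 EV was lost with DESeq2 (0.0813), without M1 EV replicate 1 (0.12) and without M0 EV replicate 2 (0.119). GCLM had 29.1, 29.4 and 30.7 CPM with M0 EVs and 29.3, 30.4 and 31.5 CPM with M2 EVs, and all were below the M1 EV libraries. It was higher by 0.19 ± 0.063 against M0 EV (edgeR adjusted p = 0.0253), and the difference of 0.15 ± 0.061 from M2 EV was not called (adjusted p = 0.0694). The call against M0 EV was lost with DESeq2 (0.117) and without M1 EV replicate 3 (0.109), and without replicate 1 (0.0696) or 2 (0.0648) of M0 EV. HMOX1 had 8.47, 9.34 and 9.39 CPM with M0 EVs and 9.57, 7.98 and 9.21 CPM with M2 EVs. It was higher with M1 EVs by 0.31 ± 0.101 against M2 EV (edgeR adjusted p = 0.0238), while 0.28 ± 0.104 against M0 EV was not called (adjusted p = 0.0518). The call against M2 EV was lost with DESeq2 (0.141) and without M1 EV replicate 1 (0.0581), M1 EV replicate 2 (0.0851) or M2 EV replicate 2 (0.199).

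SOD1 had 115.35, 107.0 and 107.0 CPM with M0 EVs and 106.8, 113.4 and 111.9 CPM with M2 EVs. GPX1 had 95.2, 96.2 and 93.5 CPM with M0 EVs and 96.2, 95.9 and 93.6 CPM with M2 EVs. GPX4 had 80.8, 76.3 and 77.9 CPM with M0 EVs and 82.0, 76.0 and 74.8 CPM with M2 EVs. All 3 genes overlapped between the groups in every comparison and were called in none. Between M2 EV and M0 EV edgeR called 0 members and 0% of all genes, and 0 members, against 447 of all genes, had an unadjusted p below 0.05. DESeq2 and limma-voom also called 0 members. The log2 fold changes of the 10 genes between M2 EV and M0 EV ran from -0.05 to 0.036, and no member's libraries were apart, against 8.99% of all genes.

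SOD2 was highest with M1 EVs, at 161.4 CPM, and the 3 other groups followed at 50.8 ± 3.51 (M2 EV), 50.4 ± 0.685 (M0 EV) and 47.2 ± 0.447 CPM (Ctrl), where no neighbours were called different. NQO1 was lowest with M1 EVs, at 323.4 ± 16.6 CPM, followed by M2 EV at 416.5 ± 7.94, M0 EV at 419.6 ± 15.4 and Ctrl at 457.8 ± 6.36 CPM (SD, n = 3 each).

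The table lists 9 RefSeq transcripts of SOD2, and each was higher in every M1 EV library than in any other library. Their mean levels were 31.2 to 161.4 CPM in M1 EV and 9.29 to 47.2 CPM in Ctrl. The ratio of M1 EV to Ctrl ran from 3.04 for NM_001322817 to 3.73 for NM_001024466. For M0 EV over Ctrl it ran from 1.06 to 1.10, and for M2 EV over Ctrl from 1.06 to 1.18. The transcripts share exons and hence reads, so they are not independent measurements, and which of them the cells used was not tested.

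**Figure D3:**
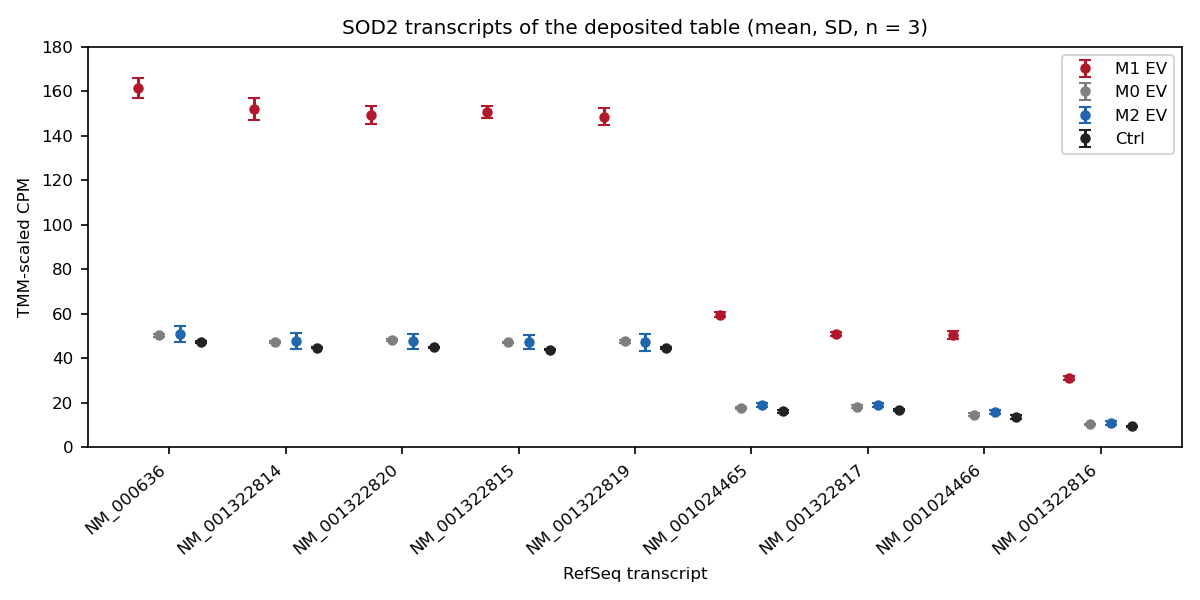
Mean level of each of the 9 SOD2 transcripts, in CPM, in M1 EV, M0 EV, M2 EV and Ctrl (points, with bars for the SD of 3 libraries). The M1 EV points stand 3.04 to 3.73 times above the Ctrl points, and the other groups lie close to Ctrl.

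Exons of SOD2 overlap those of WTAP and ACAT2 on the opposite strand and of SOD2-OT1 on the same strand, in GENCODE 29. The sources used here do not say whether reads were counted by strand. WTAP, a subunit of the RNA methylation complex, had 46.2 ± 2.16 CPM in M1 EV and 40.2 ± 0.4 CPM in Ctrl (SD, n = 3 each), a log2 fold change of 0.20 ± 0.055 (SE; edgeR adjusted p = 0.00489). ACAT2, a cytosolic thiolase, had 173.5 ± 5.64 and 188.1 ± 3.41 CPM, a log2 fold change of -0.12 ± 0.039 (adjusted p = 0.0206). SOD2-OT1 had 0.547 CPM in M1 EV and 0.985 CPM in Ctrl and was not tested. The changes of WTAP and ACAT2 were far smaller than that of SOD2. NQO1 overlaps an antisense RNA (AC092115.2) and SRXN1 a same-strand locus (AL121758.1), from which reads could not be separated here.

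Patterns over the 12 libraries were compared with that of SOD2 by Euclidean distance in centred log2 CPM. With symbols of unnamed loci and some noncoding RNAs left out, the 5 nearest genes were TMEM132A, ESM1, RELB, IRAK2 and ZC3H12A. Their distances were 0.319, 0.417, 0.434, 0.53 and 0.576, where the median of all genes was 2.59. RELB is an NF-kappa B subunit, IRAK2 a kinase of interleukin-1 and Toll-like receptor signalling, ZC3H12A an RNase that degrades inflammatory mRNAs, and ESM1 a secreted proteoglycan. TMEM132A averaged 93.5 CPM in M1 EV and 25.9 CPM in Ctrl (log2 fold change 1.85), and ESM1 89.1 and 23.7 CPM (1.91). RELB averaged 53.2 CPM in M1 EV and 14.9 CPM in Ctrl (1.83), IRAK2 31.2 and 9.80 CPM (1.69), and ZC3H12A 17.6 and 5.12 CPM (1.78). Since they were picked for following SOD2 over these libraries, their rise with M1 EVs was fixed by the choice and is a description, with no test.

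The rest of the pathway was described with 10 lists, which hold 173 different genes and share some of them. Their counts stand beside 14.3% of all tested genes called higher and 13.7% called lower in M1 EV against Ctrl, and a list near those shares is no result about that list. In M1 EV against Ctrl the removal of superoxide and peroxide held 15 tested genes, of which 1 rose (SOD2), 2 fell (CAT and PRDX5) and 12 were not called, with a median log2 fold change of -0.03. With transcripts summed, 2 rose. PRDX5, a peroxiredoxin found in mitochondria, peroxisomes and cytosol, had 106.5 ± 3.86 CPM in M1 EV and 118.0 ± 6.59 CPM in Ctrl (SD, n = 3 each), and fell by 0.15 ± 0.044 (SE, log2; edgeR adjusted p = 0.0106). Its call was lost without M1 EV replicate 3 (0.0662) or Ctrl replicate 2 (0.103), and the count of falls in the list was then 1.

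SOD2 was the only called rise among 16 tested mitochondrial antioxidant enzymes, of which 6 fell, with a median of -0.10 on the log2 scale. NNT, the transhydrogenase of the inner membrane that makes NADPH, fell to 80.8 ± 0.7 CPM in M1 EV, against 99.8 ± 3.1 CPM in Ctrl (log2 fold change -0.30 ± 0.045, edgeR adjusted p = 1.32e-06). TXNRD2, the thioredoxin reductase of mitochondria, had 18.3 ± 2.41 and 23.9 ± 0.926 CPM (-0.39 ± 0.084, adjusted p = 0.000372), and IDH2, another mitochondrial source of NADPH, 20.1 ± 2 and 25.4 ± 2.57 CPM (-0.34 ± 0.082, adjusted p = 0.00129). MSRA, which repairs oxidized methionine, also fell (-0.31 ± 0.086, edgeR adjusted p = 0.00458, but 0.117 without Ctrl replicate 3), as did PRDX5 and TXN2. All 6 falls are also counted in other lists. NNT and IDH2 count in NADPH supply, and TXNRD2, MSRA, PRDX5 and TXN2 in the thioredoxin list. The mitochondrial list had 1 rise and 4 falls against M0 EV, and 1 rise and 6 falls against M2 EV. Of all tested genes, 12.5% were called higher and 12.8% lower against M0 EV, and 12.6% and 12% against M2 EV.

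Of the 10 regulators of NRF2, 6 rose with M1 EVs and 0 fell, with a median log2 fold change of 0.13. The list mixes genes that help NRF2 with genes that oppose it, such as KEAP1, so the rises have no single direction for NRF2. SQSTM1, an autophagy receptor that can draw KEAP1 away from NRF2, had 511.1 ± 7.22 CPM in M1 EV and 387.2 ± 10.1 CPM in Ctrl (0.40 ± 0.032, edgeR adjusted p = 4.1e-13). MAFF, a small Maf protein that pairs with NRF2 or BACH1, had 35.7 ± 2.49 and 25.8 ± 1.55 CPM (0.48 ± 0.068, adjusted p = 7.32e-07), and NFE2L1, a relative of NRF2, 288.5 ± 10.3 and 258.6 ± 7.71 CPM (0.16 ± 0.037, adjusted p = 0.00103). NFE2L2 itself had 90.1 ± 5.4 CPM in M1 EV and 81.8 ± 1.4 CPM in Ctrl (0.14 ± 0.046, edgeR adjusted p = 0.0199), and KEAP1, its inhibitor, 127.2 ± 3.28 and 117.5 ± 5.14 CPM (0.11 ± 0.042, adjusted p = 0.0368). BACH1, which represses HMOX1, had 75.9 and 72.9 CPM and was not called (0.06 ± 0.048, edgeR adjusted p = 0.383). CUL3 was the remaining rise (0.11 ± 0.038, edgeR adjusted p = 0.0249), and was not followed singly through the alternatives. DESeq2 called 3 of the 10 regulators, and 2567 of all genes where edgeR called 3683. The call of NFE2L2 was lost with DESeq2 (0.0679) and without M1 EV replicate 3 (0.169), Ctrl replicate 1 (0.0663) or Ctrl replicate 3 (0.0564), and that of KEAP1 in 7 of 13 alternatives, with an adjusted p of 0.0321 to 0.204.

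The known targets of NRF2 were divided: of 30 tested, 6 rose and 7 fell, with a median log2 fold change of -0.04. FTH1, the heavy chain of the iron store ferritin, rose to 767.8 ± 22.5 CPM in M1 EV, against 649.5 ± 21.3 CPM in Ctrl (0.24 ± 0.032, edgeR adjusted p = 1.71e-07), TRIM16, a ubiquitin ligase, to 32.7 ± 0.35 against 24.6 ± 1.74 CPM (0.41 ± 0.068, adjusted p = 9.48e-06), and AKR1B1, aldose reductase, to 150.1 ± 2.16 against 129.7 ± 5.01 CPM (0.21 ± 0.039, adjusted p = 5.82e-05). EPHX1, an epoxide hydrolase, fell to 9.46 ± 0.672 CPM in M1 EV, against 14.0 ± 0.371 CPM in Ctrl (-0.56 ± 0.099, edgeR adjusted p = 2.33e-05). The light chain of ferritin, FTL, and the cystine carrier SLC7A11 were among the other falls, and GCLM, SRXN1 and CBR1 among the other rises.

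**Figure D4:**
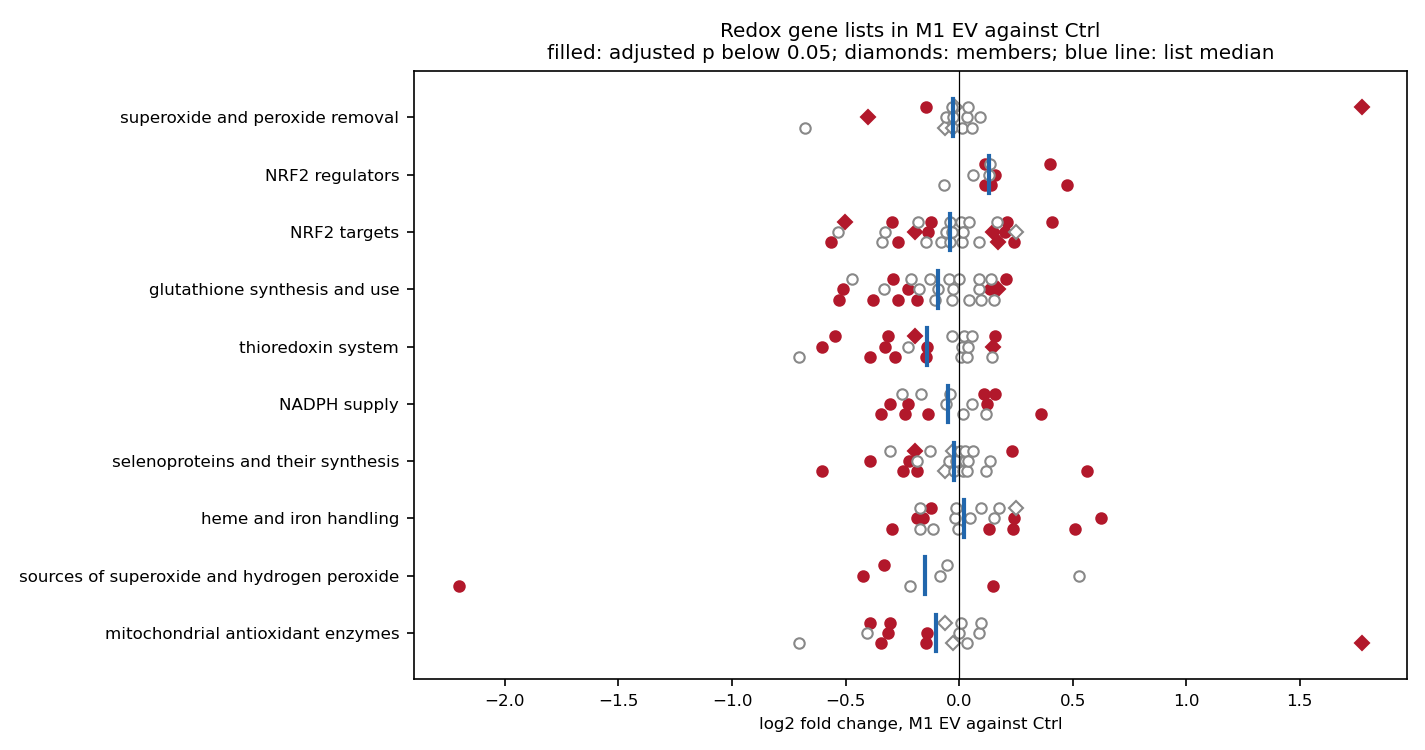
Log2 fold change in M1 EV against Ctrl (x axis) of every tested gene of the 10 lists, with filled points for an adjusted p below 0.05, diamonds for the 10 antioxidant genes and a blue line at each list's median. Among the regulators of NRF2 6 of 10 were called higher by edgeR, and 3 of 10 by DESeq2. Called lower were 9 of 21 thioredoxin genes, 7 of 27 glutathione genes and 6 of 16 mitochondrial enzymes. All tested genes had 14.3% higher and 13.7% lower. The lists share genes, and all falls of the mitochondrial enzymes are also counted in other lists.

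The thioredoxin list had 2 rises and 9 falls among 21 tested genes, with a median log2 fold change of -0.14. Besides TXNRD1 and TXNRD2, the third reductase TXNRD3 fell to 7.62 ± 0.349 CPM in M1 EV, against 11.6 ± 0.532 CPM in Ctrl (-0.60 ± 0.109, edgeR adjusted p = 3.35e-05). NXN, nucleoredoxin, had 9.76 ± 0.252 and 14.2 ± 0.935 CPM (-0.55 ± 0.096, adjusted p = 2.46e-05), and MSRB3, a methionine sulfoxide reductase, 46.6 ± 1.77 and 56.9 ± 0.864 CPM (-0.28 ± 0.053, adjusted p = 5.66e-05). The count of rises was 0 without M1 EV replicate 1. The 3 thioredoxin reductases are selenoproteins, and among 25 tested selenoproteins and genes of their synthesis 2 rose and 6 fell (median -0.02). SELENOM, a selenoprotein of the endoplasmic reticulum, rose to 12.3 ± 0.598 CPM, against 8.32 ± 0.645 CPM in Ctrl (0.56 ± 0.109, edgeR adjusted p = 9e-05), and SELENON, another, fell (-0.19 ± 0.042, adjusted p = 0.00068).

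Of 27 tested genes of glutathione synthesis and use, 3 rose and 7 fell, with a median log2 fold change of -0.09. GLRX, glutaredoxin, fell to 11.9 ± 1 CPM in M1 EV, against 17.2 ± 0.773 CPM in Ctrl (-0.53 ± 0.091, edgeR adjusted p = 1.6e-05), MGST3, a microsomal glutathione transferase, to 65.0 ± 2.45 against 75.8 ± 2.11 CPM (-0.22 ± 0.048, adjusted p = 0.000341), and GGT7 by 0.29 ± 0.066 on the log2 scale (adjusted p = 0.000628). GLRX3, a glutaredoxin that handles iron-sulfur clusters, rose to 100.6 ± 3.63 against 87.0 ± 3.7 CPM (0.21 ± 0.044, edgeR adjusted p = 0.000281). The count of rises was 1 with DESeq2 and without M1 EV replicate 1 or 3 or Ctrl replicate 1 or 3.

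Among 16 tested genes of NADPH supply 4 rose and 5 fell (median -0.05). IDH1, the cytosolic isocitrate dehydrogenase, had 195.6 ± 5.11 CPM in M1 EV and 228.9 ± 2.28 CPM in Ctrl (-0.23 ± 0.037, edgeR adjusted p = 6.75e-06), and ALDH1L2, a folate enzyme of mitochondria, 78.8 ± 2.02 and 93.0 ± 2.94 CPM (-0.24 ± 0.046, adjusted p = 9.21e-05). NNT and IDH2 were also among the falls, while the rises were ME2, MTHFD1, MTHFD2 and MTHFD2L. The count of rises was 2 with DESeq2 and without M1 EV replicate 2 or 3 or Ctrl replicate 1.

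Heme and iron genes, which set the iron that reacts with peroxide, had 5 rises and 4 falls among 20 tested (median 0.02). TFRC, the transferrin receptor that brings iron in, rose to 850.2 ± 14.7 CPM in M1 EV, against 551.5 ± 11.3 CPM in Ctrl (0.62 ± 0.031, edgeR adjusted p = 8.36e-19), and ACO1, the cytosolic aconitase that also serves as an iron regulatory protein, to 315.3 ± 3.71 against 221.0 ± 6.28 CPM (0.51 ± 0.035, adjusted p = 5.17e-15). NCOA4, which delivers ferritin for degradation, fell to 266.1 ± 8.41 CPM, against 297.1 ± 7.99 CPM in Ctrl (-0.16 ± 0.035, edgeR adjusted p = 0.000498).

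The list of enzymes that make superoxide or hydrogen peroxide, with some of their subunits, held 22 genes, of which 8 were tested. NOX1, CYBB and NOX4 were among those not tested. The list had 1 rise and 3 falls among the 8 (median -0.15). AOX1, aldehyde oxidase, had 33.8 ± 1.53 CPM in M1 EV and 42.5 ± 2.94 CPM in Ctrl (-0.33 ± 0.062, edgeR adjusted p = 6.22e-05), and XDH, xanthine dehydrogenase, 13.7 ± 0.435 and 18.5 ± 1.66 CPM (-0.43 ± 0.095, adjusted p = 0.000639). ERO1A, the oxidase of the endoplasmic reticulum, rose by 0.15 ± 0.038 on the log2 scale (edgeR adjusted p = 0.00238). NOXA1, an activator of the NADPH oxidase NOX1, also fell but at very low levels of 0.187 ± 0.183 and 0.934 ± 0.482 CPM. No gene of the 10 lists was called in M0 EV or M2 EV against Ctrl or in M2 EV against M0 EV, and the list medians ran from -0.03 to 0.023 for M0 EV and from -0.03 to 0.024 for M2 EV, both against Ctrl. Against M0 EV and M2 EV, the regulators of NRF2 had 5 and 4 rises with M1 EVs and 0 falls. The targets had 6 rises with 7 falls and 5 rises with 6 falls. Beside these stand 12.5% of all tested genes higher and 12.8% lower against M0 EV, and 12.6% and 12% against M2 EV.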

How the data were processed

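Poly(A) RNA of 12 MV3 libraries was sequenced, 3 per group. The authors deposited expected counts (estimated counts, not normalized) for 70507 RefSeq transcripts, all multiples of 0.5. The submitters' processing notes name STAR 2.6.1b, HOMER 4.10 and hg38, with no roles. The sources used here do not say how reads shared by isoforms were counted, so transcripts were not added up: each gene took its transcript with the most counts, rounded. Names came from RefSeq (69830 transcripts) and GENCODE 29 (327), and the 350 without a name (0.0608% to 0.0643% of counts) were left out. A column name that lacks a digit was taken as M0 EV replicate 1, the library left without a column.

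edgeR 4.0.16 (R 4.3.3) fitted a quasi-likelihood model with TMM scaling (factors 0.9928 to 1.007) and a default low-count filter over all 12 libraries (13113 genes, 99.91% of counts, 8 residual degrees of freedom). Tests were 2-sided, adjusted within each comparison, and were tried on simulated data. Depth was 9694683 to 14379483 counts per library, and intervals cover the spread between libraries. Alternatives were DESeq2 1.42.0, limma-voom (limma 3.58.1), RLE scaling, no filter, summed transcripts, fits of only the groups compared, a replicate block and leaving out each library. Genes named were the 10 members, up to 4 called non-members per list with the smallest adjusted p, and 4 NRF2 regulators. The 5 nearest to SOD2 were named too (mean of at least 1 CPM, without symbols of unnamed loci and some noncoding RNAs). FTL, TXN2, SLC7A11, CBR1, CUL3, ME2, MTHFD1, MTHFD2 and MTHFD2L were named in addition, after their values were seen. Members, lists and rules were chosen with earlier results of these data known. Promoters are RefSeq windows from 250 bases before to 50 after each start, and motif searches covered the whole window, for the members and for all promoters alike. FTH1, FTL and other genes with pseudogenes could share reads with them.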

Additional observations from a re-analysis of the deposited data

How the results depend on the processing

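Over 13 alternatives per comparison, 66 results gave 855 values: 812 kept direction and side of the threshold, 34 lost the call, 6 gained it and 3 changed sign. Most genes in these results that are no members were chosen for small adjusted p-values in M1 EV against Ctrl or for following SOD2. Their calls were thus likely to stay, so the 812 does not measure how stable the members' calls were. The sign changes were those of SOD1 and GPX4 in M1 EV against Ctrl, none of them called. SOD1 changed sign without Ctrl replicate 2 (0.0040 on the log2 scale), over a range of -0.030 to 0.0040 in the 13 alternatives. GPX4 changed sign without M1 EV replicate 2 (0.00097) or Ctrl replicate 3 (0.0045), over a range of -0.066 to 0.0045 in the 13 alternatives. Leaving out 1 library of the groups compared gave 4 to 6 called members in M1 EV against Ctrl, 4 to 6 in M1 EV against M0 EV, 5 to 6 in M1 EV against M2 EV, 0 to 1 in M0 EV against Ctrl (1, NQO1, without M0 EV replicate 1) and 0 in the other 2. Over all genes, these fits called 3044 to 3312 in M1 EV against Ctrl, where the fit with all libraries called 3683. They called 2647 to 3118 in M1 EV against M0 EV (all libraries 3321) and 2550 to 2888 in M1 EV against M2 EV (3229). In M2 EV against Ctrl, 1 member (NQO1) was called with no low-count filter and 1 in a fit of only the groups compared, against 0. Over all genes, DESeq2 called 2105 in M1 EV against M2 EV and edgeR 3229, and the alternatives called 0 to 87 in M0 EV against Ctrl (edgeR 2), 0 to 62 in M2 EV against Ctrl (6) and 0 to 36 in M2 EV against M0 EV (0). Deviations of same-numbered libraries correlated at -0.048 to 0.0904 over 18 pairs, and those of other-numbered libraries at -0.0679 to 0.0649 over 36. No pair passed 0.1. Such low correlations do not settle whether the replicate numbers pair the samples, which the labels do not say. With the number as a replicate block, called members were 6, 7 and 6 in M1 EV against Ctrl, M0 EV and M2 EV, beside 3757, 3417 and 3318 of all genes. HMOX1 was added against M0 EV (edgeR adjusted p = 0.0479). In the 3 other comparisons 0 members were called with the block. HMOX1 against M0 EV also passed with limma-voom (0.0437) and RLE scaling (0.0482). DESeq2 gave no adjusted p for NOXA1 in M1 EV against Ctrl and SOD2 in M2 EV against Ctrl, and a fit of only the groups compared gave none for NOXA1. Leaving out libraries of groups not compared was not run.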
